A study of Mus musculus with 5 samples.

Results

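The 63 genes described here carry out autophagy, acidify the lysosome or work inside it. They were chosen by symbol from 21259 cellular genes: every Atg gene with a number, every Atp6v0 and Atp6v1 gene, the cathepsins A, B, D, F, H, K, L, O, S and Z, and 12 single genes, which are Lamp1, Lamp2, Sqstm1, Tfeb, Tfe3, Mcoln1, Ulk1, Becn1, Map1lc3a, Map1lc3b, Gabarap and Gabarapl1. The rule itself uses no expression value, but it was set with earlier results of these data known. RNA was sequenced from NIH3T3 cells, an established mouse fibroblast line, that stably expressed a dCas9 activator, a Cas9 protein unable to cut DNA that switches on genes at sites set by a guide RNA (sgRNA). All libraries came from these cells 48 h after transfection of sgRNA plasmids, 2 libraries with scramble sgRNA and 3 with sgRNA against the promoter of the retrotransposon LINE-1. The labels do not say whether libraries of a group came from separate cultures, so p-values measure the spread between these libraries, which may be technical.

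Autophagy encloses cytoplasm in a double membrane, the autophagosome, which then fuses with the lysosome. The lysosome digests its contents at low pH, and the V-ATPase, a rotary proton pump with a membrane part (V0) and a cytosolic part (V1), keeps that pH. Tfeb, Tfe3 and Mitf encode related MiT transcription factors that bind E-box motifs (CACGTG) near many lysosomal and autophagy genes, and mTORC1, a kinase complex on the lysosome, controls where these factors reside in the cell. In fibroblasts the same organelle also degrades collagen taken up from the matrix.

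The libraries held 30681384 to 45596490 reads over cellular genes, recovered from the deposited normalized counts, and 0.583 to 0.689% of these reads fell in the 63 genes. As a check of the target, the mouse LINE-1 subfamily L1MdTf_I had 313 to 329 normalized counts with scramble and 643 to 717 with LINE-1 sgRNA, while the more abundant L1MdTf_III, at 29988 to 31386 and 24765 to 29056, was not higher. The fibroblast markers Col1a1, Col1a2, Col3a1, Thy1, Pdgfrb, Vim, S100a4, Fbn1, Pdgfra and Lox were all detected. With LINE-1 sgRNA 9 of 10 were lower (90.0%, against 25.4% of all tested genes), and after TMM rescaling 8 were, where 17.7% of all genes were lower. Their summed level was 573008 to 583684 with scramble and 367671 to 391902 with LINE-1 sgRNA. Of 10 macrophage and leukocyte markers, of which 9 were tested and none was at 0, Ptprc, Adgre1 and Laptm5 were higher (from 4.79 ± 2.23 to 21.02 ± 13.7, from 1.44 ± 0.528 to 26.5 ± 6.61 and from 6.39 ± 0.0432 to 49.8 ± 9.15), while Csf1r, Itgam, Lyz2, Fcer1g, Cd14 and Cd74 did not pass, Cd74 at 37.5 and 24.5 with scramble and 159, 229 and 17.5 with LINE-1 sgRNA. Ptprc had overlapping groups, at 3.21 and 6.36 with scramble and 30.1, 27.7 and 5.25 with LINE-1 sgRNA, so in both genes LINE-1 sgRNA libraries 1 and 2 were high and library 3 lay within or below the scramble range. The 3 that were higher are 33.3% of the 9 tested, against 18.2% of all tested genes. All 3 had a scramble mean below 10, so they met the limit for testing, a mean of 10, only through the LINE-1 sgRNA group. With a limit of 50 Ptprc, Adgre1 and Laptm5 were no longer tested, and none of the other markers was higher. The number of these markers that were higher was 2 when scramble 1, LINE-1 sgRNA 1 or LINE-1 sgRNA 2 was omitted and 4 when LINE-1 sgRNA 3 was. The summed level of the 10 was 1049 to 1076 with scramble and 1095 to 1233 with LINE-1 sgRNA. Of 8 osteoclast markers, 5 were tested and 2, Itgb3 and Mmp9, were lower (40.0%, against 25.4% of all tested genes). Without scramble library 2 neither passed, and without LINE-1 sgRNA library 2 only 1 of them did. Acp5, the acid phosphatase of osteoclasts, did not pass, although its LINE-1 sgRNA libraries were all above both scramble libraries, at 13.9 and 9.999 with scramble and 25.5, 18.2 and 25.4 with LINE-1 sgRNA (log2 0.89, SE 0.36, adjusted p = 0.055), and it passed as higher after TMM rescaling (log2 0.95, adjusted p = 0.0469). The summed level of the 8 was 699 to 771 with scramble and 541 to 573 with LINE-1 sgRNA, and that of 8 epithelial markers, none of which changed among the 3 tested, was 83.6 to 97.4 with scramble and 81.0 to 96.3 with LINE-1 sgRNA. Several lysosomal genes are also abundant in macrophages and osteoclasts, and the part of these markers in the results below was not tested. In bulk RNA, fewer cells of a kind and less RNA per cell cannot be told apart, nor can cells that took up a plasmid and cells that did not.

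Values below are normalized counts of single libraries in the order scramble 1 and 2, then LINE-1 sgRNA 1, 2 and 3, or means ± SD (n = 2 and n = 3). A positive change means higher with LINE-1 sgRNA, on the scale log2(value + 1), and comes from a limma fit to all genes with a mean of at least 10. A gene passed when its p, adjusted by Benjamini-Hochberg, was under 0.05. Of the 63 genes 59 were tested. Atp6v0d2, Atp6v1e2, Atp6v1g3 and Ctsh lay below a mean of 10. Atp6v1fnb, named for its place next to Atp6v1f and no pump subunit, entered the test with a scramble mean below 10, the only gene of the 59 with a group mean under that limit.

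More autophagy and V-ATPase genes rose than fell, while the transcription factor genes fell. Of the 59 tested genes 18 rose, which is 30.5%, against 18.2% of all 14337 tested genes. Only 6 fell, 10.2%, against 25.4% of all genes. The median change was 0.094, where that of all tested genes was -0.063. Most changes were small: 54 of the 59 were under 0.5 in size, against 11507 of the 14337 genes, and only Atp6v1c2, a scarce gene, passed 1. After TMM rescaling, which added 0.058 to the median change of all genes, 27 rose and 2 fell, where the share of all genes was 21.3% higher and 17.7% lower. Tfeb and Tfe3 were the 2 that still fell. In edgeR on the recovered reads the numbers were 26 and 2 (21.2% and 18.0% of all genes), in DESeq2 24 and 2 (19.6% and 16.9%), and with table totals 30 and 2 (22.9% and 14.9%). Without a variance trend they were 15 and 3 (15.5% and 16.3%). Of the 18 genes that rose 15 passed in each of the 15 alternative analyses in which they were fitted, and of the 6 that fell Tfeb and Tfe3 did. Omitting 1 library at a time gave 18 and 3 (scramble 1; 16.5% and 21.9% of all genes), 16 and 4 (scramble 2; 17.0% and 20.6%), 15 and 3 (LINE-1 sgRNA 1; 15.7% and 19.9%), 19 and 4 (LINE-1 sgRNA 2; 17.4% and 24.1%) and 15 and 2 (LINE-1 sgRNA 3; 16.4% and 21.7%).

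**Figure D1:**
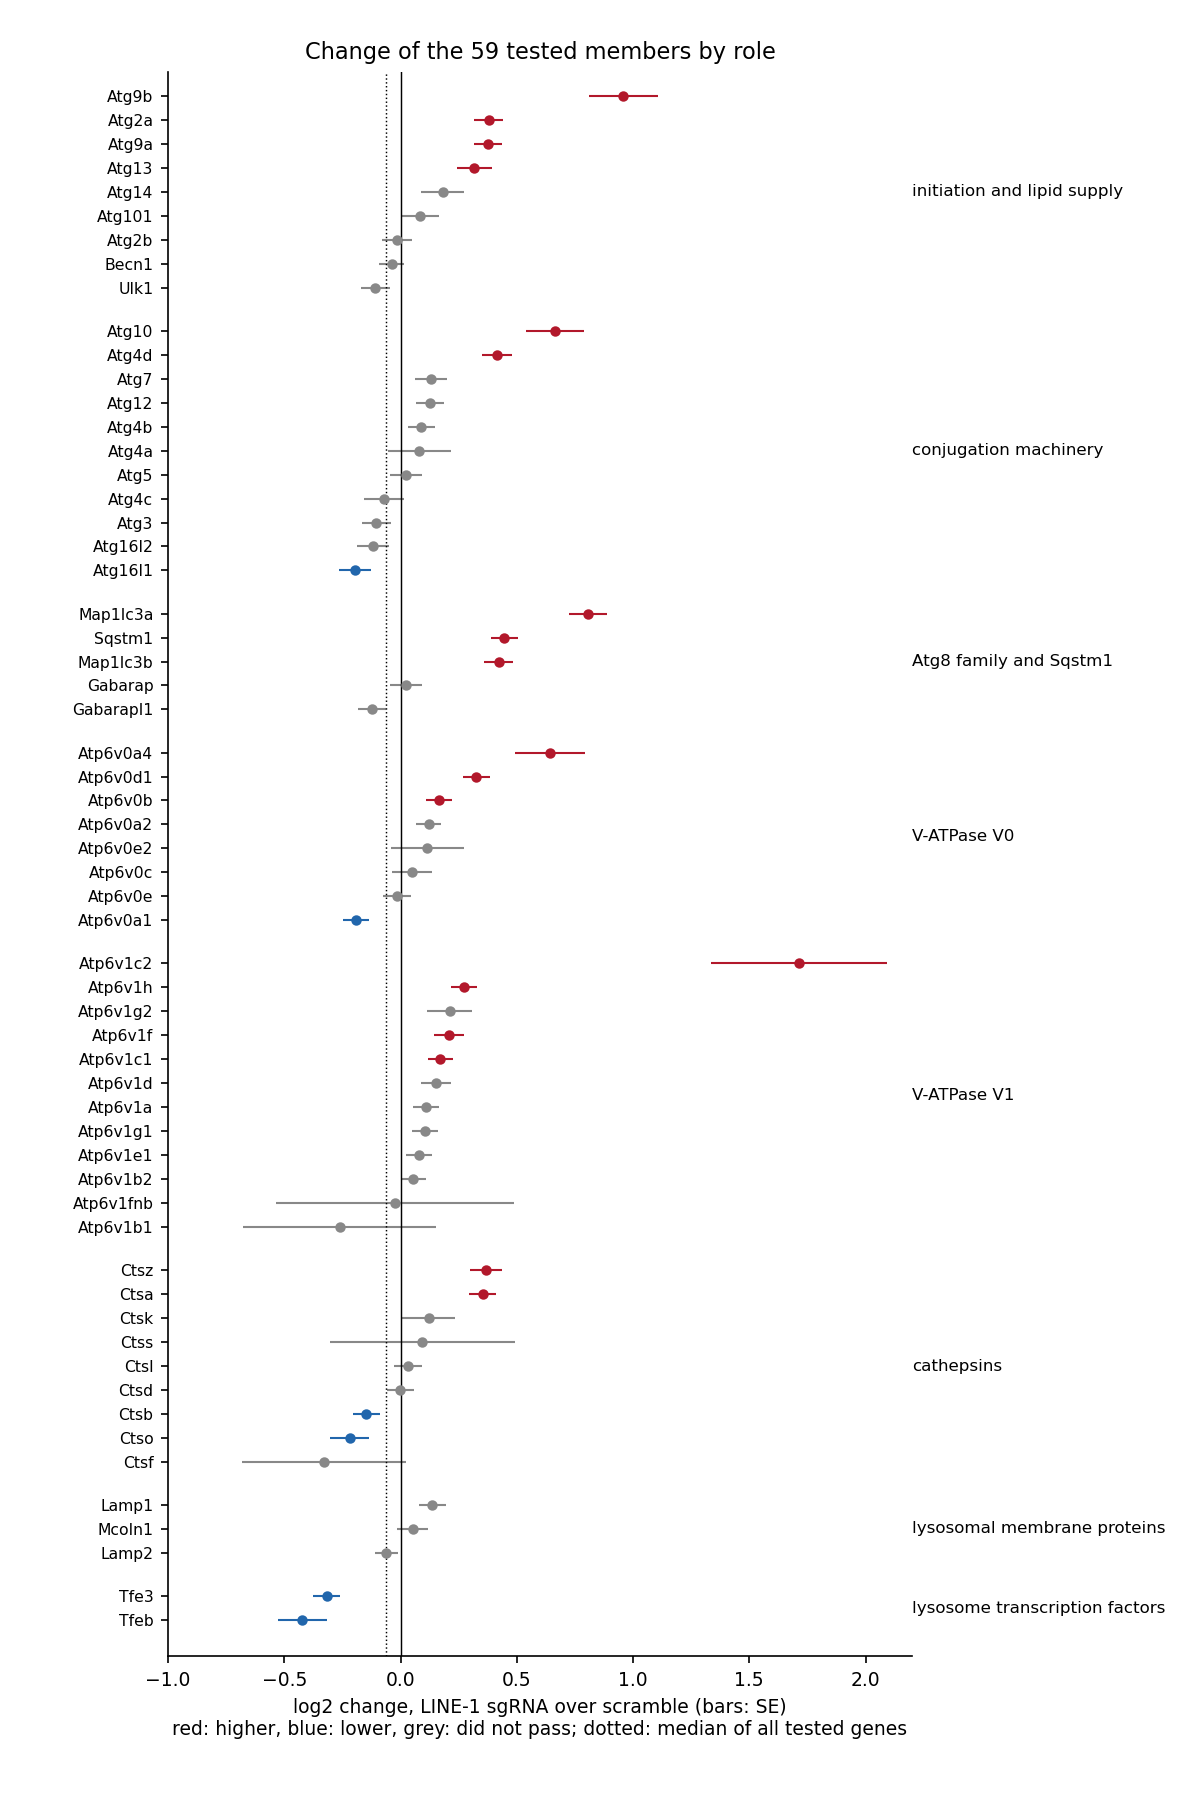
Change of each of the 59 tested genes (log2 axis, positive where LINE-1 sgRNA was higher) with bars of 1 SE, grouped by role. Red points rose, blue points fell and grey points did not pass; the dotted line is the median of all tested genes at -0.063, and most points lie within 0.5 of 0.

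The transcription factor genes of the lysosome fell. Tfeb, which drives transcription of lysosomal and autophagy genes when it enters the nucleus, had 435 and 435 normalized counts with scramble and 304, 340.0 and 329 with LINE-1 sgRNA. All 3 LINE-1 sgRNA libraries were below both scramble libraries, and Tfeb fell by 0.42 on the log2 scale (SE 0.1, adjusted p = 0.00356; chromosome 17, 47737030 to 47792419, GRCm38). Tfe3, its X-linked relative, had 2225 and 2332 with scramble and 1842, 1798 and 1845 with LINE-1 sgRNA, and fell by 0.32 (SE 0.058, adjusted p = 3.12e-04; chromosome X, 7762560 to 7775202). Its groups did not overlap either. Mitf, the third factor of the family, also known from pigment cells and osteoclasts, is in the list of TFEB and mTORC1 control genes and had 1145 and 1023 with scramble and 583, 683 and 587 with LINE-1 sgRNA (log2 -0.81, adjusted p = 1.43e-06). Tfec, the fourth gene of the family, lay below the limit for testing, and 13 of its 15 scramble reads came from scramble library 1. Per kilobase of exon, Tfe3 was the most abundant of the 4 at a level of 246 ± 8.15 to 197 ± 2.85, Mitf went from a level of 175 ± 13.9 to 99.7 ± 9.15 and Tfeb from 76.7 ± 0.0248 to 57.2 ± 3.25. These 3 falls kept their sign and passed under each alternative run.

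**Figure D2:**
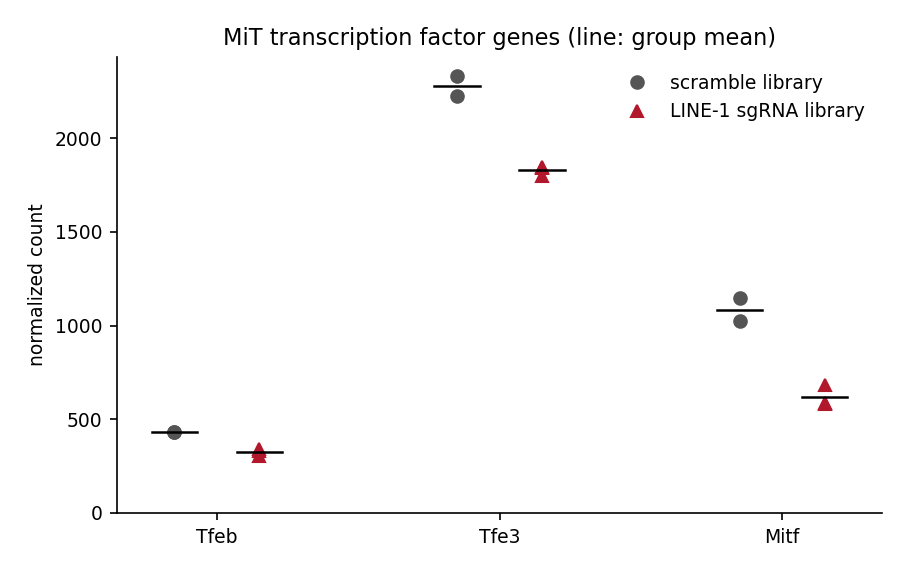
Normalized counts of Tfeb, Tfe3 and Mitf in each library, on an axis that starts at 0, with a line at each group mean. In all 3 genes every LINE-1 sgRNA library lies below both scramble libraries.

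Because these factors bind CACGTG, RefSeq promoter windows (GRCm38.p6, 250 bases before to 50 after an annotated start) were searched for that palindrome, whose reverse complement is itself. Windows were found for 51 of the 63 genes, and 14 of them (27.5%) held CACGTG at 1 or more annotated starts, against 8.09% of 27025 genes with a window and 11.2% of the 11185 that were also tested for expression. GTCACGTG, on either strand, stood in 9 of the 51 (17.6%, against 2.55% of all genes with a window and 4.38% of those also tested). Every such match holds a CACGTG. The same run followed by AC, a full palindrome, stood in 0 of the 51 and in 0.370% of all genes. Of the 15 rising genes with a window 3 held CACGTG, and none of the 4 falling ones did. Of the 30 that did not pass 11 held it. The matches are shown with up to 10 bases on each side, read on the strand of the gene, with CACGTG in capitals, first those of genes that rose.
Ctsa, chr2:164833751-164833776, plus strand: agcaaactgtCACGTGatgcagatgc
Ctsa, chr2:164833768-164833793, plus strand: tgcagatgctCACGTGaccagagcta
Atp6v0b, chr4:117887332-117887357, minus strand: gtcggcgcatCACGTGcgccggtcag
Atp6v0b, chr4:117887350-117887375, minus strand: gcgcgggggtCACGTGgggtcggcgc
Atp6v0d1, chr8:105566052-105566077, minus strand: ctactgcggtCACGTGagacgcggtg

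Matches in genes that did not pass come next. They include enzymes and conjugation factors, and Atg3, Ctsd and Mcoln1 hold a pair of matches each.
Atg3, chr16:45158725-45158750, plus strand: ctccttttgtCACGTGtcctgggaga
Atg3, chr16:45158748-45158773, plus strand: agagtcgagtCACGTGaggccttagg
Atg5, chr10:44268315-44268340, plus strand: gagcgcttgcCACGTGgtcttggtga
Atg7, chr6:114670954-114670979, plus strand: tattggtggtCACGTGtgcagtaagt
Atg14, chr14:47568420-47568445, minus strand: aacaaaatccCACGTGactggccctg
Atp6v0e, chr17:26676389-26676414, plus strand: gcgcgccgatCACGTGagcctctgtt
Atp6v1a, chr16:44139375-44139400, minus strand: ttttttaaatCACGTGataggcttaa
Ctsd, chr7:142387910-142387935, minus strand: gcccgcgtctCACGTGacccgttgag
Ctsd, chr7:142388057-142388077, minus strand: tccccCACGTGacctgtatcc
Ctsf, chr19:4855076-4855101, plus strand: ccccgtggtcCACGTGcctcgcgtaa
Ctsl, chr13:64370741-64370766, minus strand: cgttagaagcCACGTGctgatctaaa
Mcoln1, chr8:3500438-3500463, plus strand: tcgcgcttgtCACGTGttcagttcag
Mcoln1, chr8:3500464-3500489, plus strand: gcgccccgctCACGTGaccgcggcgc

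Lamp1, the most abundant lysosomal membrane protein gene of the set, has 4 matches, at positions -61, -45, -28 and -15 from its annotated start, and its whole window is shown with them in capitals. Below it are, as the genes with the largest rise and the largest fall among those with a window, Atp6v1c2 and the first of 3 annotated starts of Tfeb, in which no CACGTG stands.
Lamp1, chr8:13158911-13159210, plus strand: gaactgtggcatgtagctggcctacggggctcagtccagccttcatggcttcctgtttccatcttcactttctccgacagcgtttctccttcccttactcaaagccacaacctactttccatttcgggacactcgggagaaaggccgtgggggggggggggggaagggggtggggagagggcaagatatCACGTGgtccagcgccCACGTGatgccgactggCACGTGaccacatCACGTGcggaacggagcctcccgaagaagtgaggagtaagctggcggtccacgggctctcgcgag
Atp6v1c2, chr12:17324681-17324980, minus strand: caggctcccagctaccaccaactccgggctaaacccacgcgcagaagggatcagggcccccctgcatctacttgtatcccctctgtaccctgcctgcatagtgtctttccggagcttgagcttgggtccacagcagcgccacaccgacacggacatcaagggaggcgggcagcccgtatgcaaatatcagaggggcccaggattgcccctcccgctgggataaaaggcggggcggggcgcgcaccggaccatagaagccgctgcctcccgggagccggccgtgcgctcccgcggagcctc
Tfeb, chr17:47736787-47737086, plus strand: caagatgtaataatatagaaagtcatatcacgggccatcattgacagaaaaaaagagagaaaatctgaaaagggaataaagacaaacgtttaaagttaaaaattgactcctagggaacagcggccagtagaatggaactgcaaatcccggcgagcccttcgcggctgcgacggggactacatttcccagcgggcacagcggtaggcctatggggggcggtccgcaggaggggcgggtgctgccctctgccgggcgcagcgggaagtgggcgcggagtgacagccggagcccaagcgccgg

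A pair of other motifs was counted in the same windows on both strands. GAAA, any 2 bases and GAAA again, the core of the element bound by interferon-activated factors, stood in Ctso, Ctss, Lamp1 and Atp6v1d, which is 4 of 51 (7.84%, against 3.99% of all genes). The match of Ctss, the cathepsin of antigen-presenting cells, is shown with the motif in capitals.
Ctss, chr3:95526755-95526784, plus strand: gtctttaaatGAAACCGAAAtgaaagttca

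TGACNNNGC, the core of the antioxidant response element, stood in 8 of 51 (15.7%, against 3781 of the 27025 genes with a window). Among the 11185 genes that were also tested for expression the share was 16.7%, above that of the 51. Map1lc3b, Ctsz and Atg13, which rose, held it, and so did Atp6v0a1, which fell. It also stood in Ctsd, Atp6v1a and Atp6v1g2, which did not pass, and in Atp6v1e2, which was not tested. No match tells whether a factor binds there in these cells.

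Genes that start the autophagosome and supply its lipids rose in 4 of 9 cases and fell in none, where 18.2% of all tested genes rose and 25.4% fell. Atg9b, one of the pair of genes for ATG9, a lipid scramblase in the vesicles from which the membrane grows, had 136 and 145 normalized counts with scramble and 241, 331 and 256 with LINE-1 sgRNA. Every LINE-1 sgRNA library was above both scramble libraries, with library 2 the highest, and the mean rose from 140.3 ± 6.05 to 276 ± 48.0 (on chromosome 5, 24384181 to 24392143; log2 0.96, SE 0.15, adjusted p = 5.91e-05). Atg9a, the widely expressed partner, had 2142 and 2324 with scramble and 2801, 2883 and 3016 with LINE-1 sgRNA (log2 0.38, SE 0.06, adjusted p = 7.34e-05). Per kilobase of exon, the share of Atg9b in the level of the pair went from 8.40 ± 0.111% to 12.2 ± 1.87% (exact permutation test, two-sided, p = 0.1, which 2 against 3 libraries cannot go below).

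Atg2a, which transfers lipids into the growing membrane, had 1924 and 2153 with scramble and 2742, 2619 and 2588 with LINE-1 sgRNA (log2 0.38, SE 0.062, adjusted p = 1.04e-04). Its paralog Atg2b had a change of -0.015 and overlapping groups (2818 and 3284 with scramble and 3109.5, 2986 and 2937 with LINE-1 sgRNA; adjusted p = 0.869), with a 95% interval of -0.15 to 0.12. Atg13, the scaffold of the starting kinase complex, had 1123 and 968 with scramble and 1308, 1333 and 1261 with LINE-1 sgRNA (log2 0.32, SE 0.075, adjusted p = 0.00247). The kinase gene Ulk1 itself did not pass, at 1595 and 1729.8 with scramble and 1529, 1539.8 and 1554 with LINE-1 sgRNA (change -0.11, 95% interval -0.24 to 0.025), although its groups did not overlap. Becn1 and Atg14, subunits of the lipid kinase complex that follows, and Atg101, a partner of Atg13, also did not pass. Their changes were -0.038 (95% interval -0.15 to 0.074), 0.18 (-0.016 to 0.38) and 0.085 (-0.084 to 0.25). Becn1 was among the more abundant genes of this role, with means going from 3225 ± 63.1 to 3141 ± 32.3.

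The enzymes that attach Atg8 proteins to the membrane were mostly within 0.2 of 0. Of 11 tested, 2 rose, which is 18.2% and the same share as among all genes, and 1 fell (9.09%, against 25.4%). Atg10, the enzyme that joins Atg12 to Atg5, had 197 and 174 normalized counts with scramble and 279, 306 and 298 with LINE-1 sgRNA (log2 0.67, SE 0.12, adjusted p = 3.48e-04). Atg4d, one of 4 proteases that trim Atg8 proteins, had 1322 and 1208 with scramble and 1697, 1688 and 1666 with LINE-1 sgRNA (log2 0.41, SE 0.065, adjusted p = 6.54e-05). In both genes the groups stood well apart, while the other proteases Atg4a, Atg4b and Atg4c did not pass, with changes of 0.081, 0.09 and -0.072. Atg4b, the gene of the role with the highest mean normalized count, had 1972 and 2012 with scramble and 2086, 2116 and 2156 with LINE-1 sgRNA. It passed after TMM rescaling (log2 0.15, adjusted p = 0.0495) but not in edgeR (log2 0.15, adjusted p = 0.0512) or DESeq2 (log2 0.15, adjusted p = 0.0737).

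Atg16l1, which places the attachment machinery on the membrane, was the only one of the 11 to fall, with 1766 and 1689.8 with scramble and 1514, 1621 and 1398 with LINE-1 sgRNA (log2 -0.20, SE 0.07, adjusted p = 0.0318). That call was lost after TMM rescaling (log2 -0.14, adjusted p = 0.136) and without scramble 1 (log2 -0.16, adjusted p = 0.149), LINE-1 sgRNA 1 (log2 -0.20, adjusted p = 0.0753) or LINE-1 sgRNA 3 (log2 -0.14, adjusted p = 0.154). Atg7, Atg12, Atg5, Atg3 and Atg16l2, which make up the rest of the machinery, did not pass, with changes between -0.12 for Atg16l2 and 0.13 for Atg7. After TMM rescaling Atg7 (log2 0.19, adjusted p = 0.0381) and Atg12 (log2 0.18, adjusted p = 0.0248) passed as higher. All 3 LINE-1 sgRNA libraries of Atg12, at 1512, 1531 and 1516, were above the scramble libraries at 1389.8 and 1394.

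The LC3 genes and the cargo receptor gene Sqstm1 rose, and the GABARAP genes did not. Map1lc3a, which encodes the Atg8 protein LC3A, had 1206 and 1019 normalized counts with scramble and 2005, 1759 and 2063 with LINE-1 sgRNA, a rise of 1.75-fold in the mean (log2 0.81, SE 0.082, adjusted p = 4.92e-07; chromosome 2, 155276297 to 155278073). Map1lc3b, for the LC3B protein widely used as an autophagosome marker, had 2249.5 and 2061 with scramble and 2947, 2748 and 2965 with LINE-1 sgRNA (log2 0.42, SE 0.061, adjusted p = 2.76e-05). Neither gene had overlapping groups. Per kilobase of exon Map1lc3a held 76.6 ± 1.02% of the level of the pair with scramble and 81.0 ± 0.671% with LINE-1 sgRNA. That share rests on all annotated exons, 1181 bases for Map1lc3a and 7517 for Map1lc3b, which need not be those used here. By normalized counts Map1lc3b was the higher of the pair in every library.

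Sqstm1, the gene of the receptor p62 that brings ubiquitinated cargo to LC3, was the most abundant gene of this role. It had 13234 and 12649 with scramble and 17982, 16747 and 18218 with LINE-1 sgRNA, a rise of 1.36-fold (log2 0.45, SE 0.056, adjusted p = 6.08e-06; chromosome 11, 50199366 to 50210827). In each LINE-1 sgRNA library it was above both scramble libraries. Gabarap and Gabarapl1, of the other Atg8 branch, had overlapping groups, with means going from 6683 ± 608 to 6791 ± 547 and from 3346 ± 81.3 to 3077 ± 198. The 95% interval of the change was -0.12 to 0.17 for Gabarap and -0.25 to 0.0056 for Gabarapl1. Over all 25 tested autophagy genes 9 rose (36%, against 18.2% of all genes) and 1 fell (4%, against 25.4%), and 9 rose whichever library was left out.

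**Figure D3:**
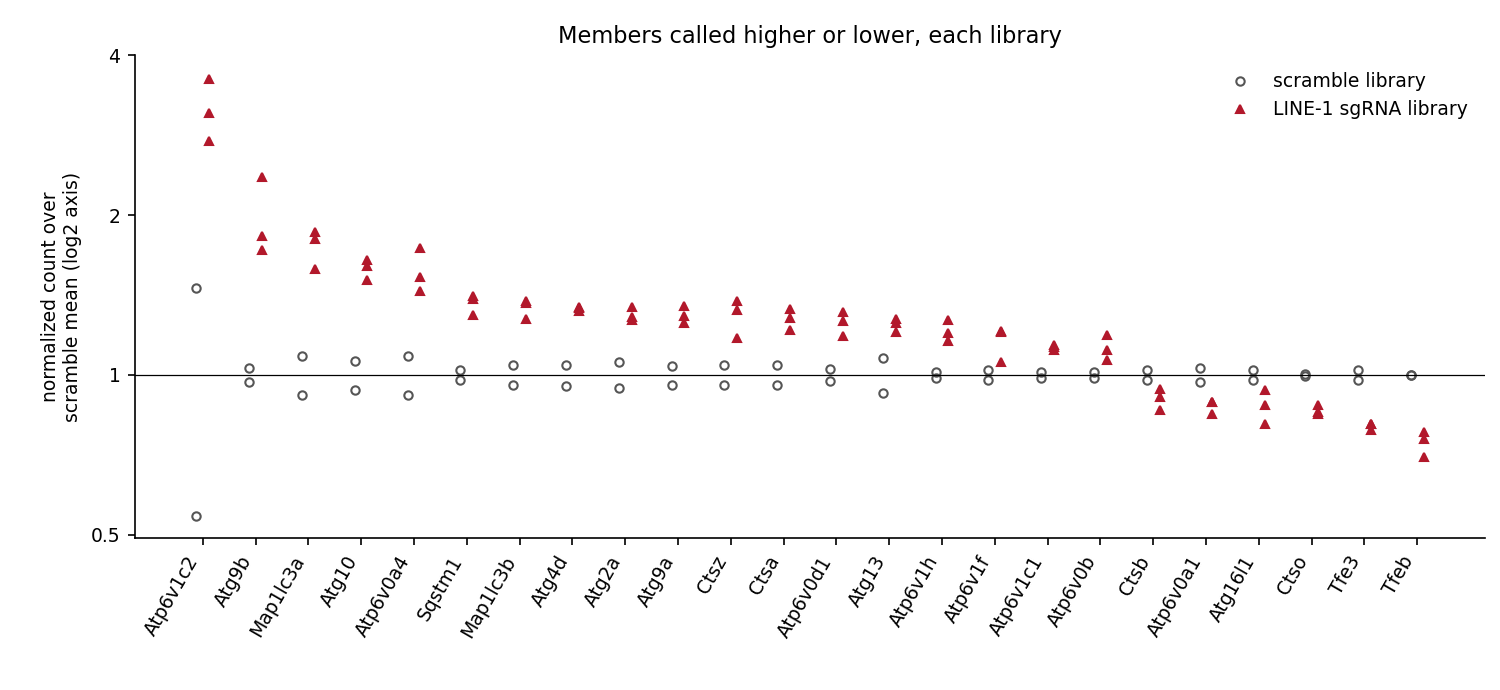
Normalized count of each library divided by the scramble mean of its gene, on a log2 axis, for the 18 genes that rose and the 6 that fell, ordered by change. Open circles are the 2 scramble and red triangles the 3 LINE-1 sgRNA libraries; the groups of each of the 24 genes do not overlap.

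For all 24 genes that passed the groups did not overlap. Among the 59 tested genes the LINE-1 sgRNA libraries were all above both scramble libraries in 28 and all below in 13, against 24.6% and 37.2% of all tested genes.

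Genes with a V-ATPase symbol, which are subunit genes except for Atp6v1fnb, rose in 7 of 20 tested cases (35.0%, against 18.2% of all genes). They fell in 1 (5%, against 25.4%), and the rises were small in the abundant subunits. In the membrane part V0, Atp6v0d1, the stalk subunit that couples V0 to V1, had 3257 and 3093 normalized counts with scramble and 4169, 3766 and 4005 with LINE-1 sgRNA (log2 0.33, SE 0.058, adjusted p = 2.31e-04; chromosome 8, 105524465 to 105566047). Atp6v0b, a subunit of the proton-carrying ring and the most abundant V0 gene of the set, had 4605 and 4500.5 with scramble and 5073, 4866 and 5407 with LINE-1 sgRNA (log2 0.17, SE 0.056, adjusted p = 0.0235). This last call was lost without scramble 2 (log2 0.15, adjusted p = 0.0904), LINE-1 sgRNA 1 (log2 0.17, adjusted p = 0.0713) or LINE-1 sgRNA 3 (log2 0.13, adjusted p = 0.134). Atp6v0c, for the main ring subunit, Atp6v0e and Atp6v0e2 had overlapping groups and changes of 0.05, -0.013 and 0.12.

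The 4 genes of the a subunit, which forms the proton path and directs the pump to its membrane, moved differently. Atp6v0a1, known from neurons and many other cells, had 3019 and 3217 with scramble and 2777, 2775 and 2636 with LINE-1 sgRNA (log2 -0.19, SE 0.057, adjusted p = 0.0116), the only V-ATPase gene of the set to fall. Its call was lost after TMM rescaling (log2 -0.13, adjusted p = 0.0695) and without scramble 2 (log2 -0.15, adjusted p = 0.0945) or LINE-1 sgRNA 3 (log2 -0.17, adjusted p = 0.0587). Atp6v0a2, found on Golgi and endosomes, had 2603 and 2749.7 with scramble and 2876, 2954 and 2895 with LINE-1 sgRNA and passed as higher after TMM rescaling (log2 0.18, adjusted p = 0.0156), though not as deposited (log2 0.12, adjusted p = 0.0891). Atp6v0a4, typical of kidney, rose from a low level, with 117 and 138 with scramble and 221, 183 and 195 with LINE-1 sgRNA (log2 0.64, SE 0.15, adjusted p = 0.00226).

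The fourth a gene, Tcirg1, lies outside the symbol rule and is in the list of further V-ATPase genes. It encodes the a3 subunit of lysosomes and of the osteoclast border, and had 2569.7 and 2317 normalized counts with scramble and 9337, 9913 and 9203 with LINE-1 sgRNA, a rise of 3.88-fold (log2 1.96, SE 0.058, adjusted p = 3.48e-14; chromosome 19, 3896050 to 3907133). Its LINE-1 sgRNA libraries were all more than 3 times the higher scramble library. Per kilobase of exon its share of the 4 a genes went from 37.1 ± 2.74% to 69.8 ± 0.614%. The share of Atp6v0a1 went from 33.3 ± 1.47% to 14.1 ± 0.327% and that of Atp6v0a2 from 27.8 ± 1.06% to 14.7 ± 0.305%. That of Atp6v0a4 went from 1.79 ± 0.212% to 1.36 ± 0.156% (exact permutation test, two-sided, p = 0.1 for each, again the floor of the design). A larger share of Tcirg1 lowers the other shares by itself. The level of Atp6v0a2 per kilobase went up, from 398 ± 15.4 to 432 ± 6.04, and that of Atp6v0a1 went from 476 ± 21.3 to 416 ± 12.4. The summed level of the 4 per kilobase went from 1430.0 ± 0.998 to 2949 ± 93.6. This set of 4 was put together after its values were seen, and lengths are those of all annotated exons of a gene, which need not be the exons used here.

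**Figure D4:**
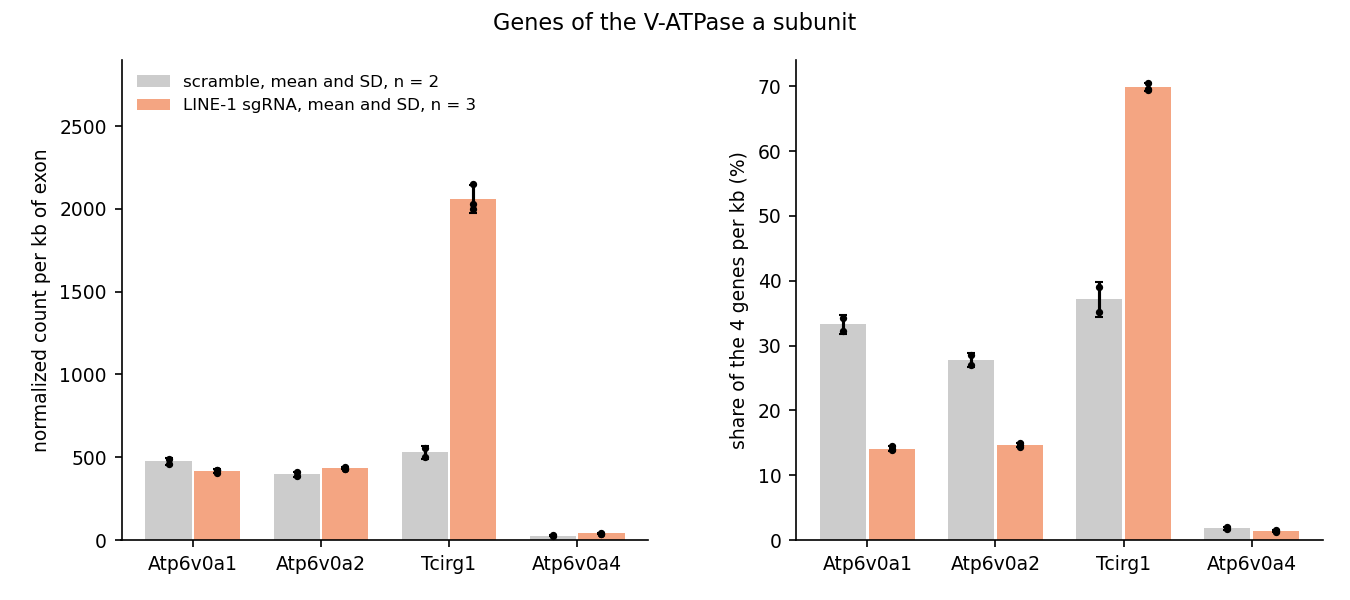
Normalized counts per kilobase of exon of the 4 genes of the V-ATPase a subunit (left) and their shares of the sum in percent (right). Bars are means with SD, dots are libraries (2 scramble, 3 LINE-1 sgRNA), and Tcirg1 goes from a share of 37.1% to 69.8%.

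Of the 12 tested genes named for the cytosolic part V1, with Atp6v1fnb among the 12, 4 rose (33.3%, against 18.2% of all genes). None fell, where 25.4% of all genes did. Atp6v1h, a regulatory subunit that ties V1 to V0, had 3925 and 3832 normalized counts with scramble and 4499, 4646 and 4918 with LINE-1 sgRNA (log2 0.27, SE 0.055, adjusted p = 7.14e-04). Atp6v1f and Atp6v1c1, of the central rotor and of the stalk, had 2539.7 and 2436 with scramble and 2997, 2637 and 3013 with LINE-1 sgRNA (log2 0.21, adjusted p = 0.0147), and 2912 and 2987 with scramble and 3281, 3351 and 3329 with LINE-1 sgRNA (log2 0.17, adjusted p = 0.0154), respectively. Of these, Atp6v1h passed in every alternative, while Atp6v1f did not pass without scramble 2 (log2 0.18, adjusted p = 0.0846), LINE-1 sgRNA 1 (log2 0.18, adjusted p = 0.0779) or LINE-1 sgRNA 3 (log2 0.18, adjusted p = 0.0657), nor did Atp6v1c1 without scramble 1 (log2 0.15, adjusted p = 0.0658), LINE-1 sgRNA 1 (log2 0.18, adjusted p = 0.0554) or LINE-1 sgRNA 3 (log2 0.17, adjusted p = 0.0507). The number of V1 genes that rose was accordingly 2 without LINE-1 sgRNA library 1 or 3, and that of all V-ATPase genes was 4. Of all genes 15.7% rose without library 1 and 16.4% without library 3. After TMM rescaling 12 of the 20 V-ATPase genes rose and none fell, where 21.3% of all genes rose and 17.7% fell. Without a variance trend 4 rose, where 15.5% of all genes did.

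Atp6v1c2, the second C subunit gene, known from kidney and lung, had the largest change of the whole set but few reads. It had 17.1 and 6.36 normalized counts with scramble and 42.4, 36.5 and 32.4 with LINE-1 sgRNA, from 16 and 7 reads with scramble and 55, 54 and 37 with LINE-1 sgRNA (log2 1.71, SE 0.38, adjusted p = 0.00147). Per kilobase it made up 1.02 ± 0.67% of the C subunit level with scramble and 2.80 ± 0.395% with LINE-1 sgRNA. Its exons overlap those of the far more abundant Pdia6 on the other strand (12198 ± 173 and 10324 ± 412 normalized counts), and no source used here says whether counting used the strand.

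Atp6v1a, for the catalytic subunit, and Atp6v1b2, for the B subunit that alternates with it, had changes of 0.11 (95% interval -0.0076 to 0.23) and 0.056 (-0.061 to 0.17) and did not pass. Atp6v1b2 had the highest mean normalized count of the V1 genes, though not the highest level per kilobase of exon. Atp6v1d, Atp6v1e1, Atp6v1g1 and Atp6v1g2, of the rotor and the stalks, also did not pass, with changes from 0.079 for Atp6v1e1 to 0.21 for Atp6v1g2. Atp6v1d passed as higher without scramble 1 (log2 0.26, adjusted p = 0.00534). After TMM rescaling 8 of the 12 passed as higher, Atp6v1a, Atp6v1d, Atp6v1g1 and Atp6v1g2 in addition, where 21.3% of all genes did. Some tissue-restricted subunits were near silent in these cells. Atp6v1b1, of kidney and inner ear, had group means of 21.1 and 19.2, and Atp6v1e2, of testis, 8 and 8.13. Atp6v1g3, of kidney, and Atp6v0d2, of osteoclasts, had between 0 and 3 reads in every library. Atp6v1fnb had 9.74 and 10.7.

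Cathepsins, the proteases of the lysosome, split into 2 that rose, 2 that fell and 5 that did not pass. That is 22.2% in each direction, near the 18.2% higher and 25.4% lower of all tested genes. Ctsa, a carboxypeptidase that also shields other lysosomal enzymes, had 5294 and 4844 normalized counts with scramble and 6758, 6172 and 6496 with LINE-1 sgRNA (log2 0.35, SE 0.058, adjusted p = 9.87e-05). Ctsz, a cysteine carboxypeptidase, had 2797 and 2558 with scramble and 3549, 3136 and 3692 with LINE-1 sgRNA (log2 0.37, SE 0.069, adjusted p = 3.58e-04). The groups of both stood apart, and both passed under each alternative run.

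Both falls depended on the scaling and on single libraries. Ctsb, a major cysteine protease, had 18894 and 18049 with scramble and 16818, 15858 and 17395 with LINE-1 sgRNA (log2 -0.15, SE 0.057, adjusted p = 0.0465), and did not pass after TMM rescaling (log2 -0.089, adjusted p = 0.217) or without scramble 1 (log2 -0.11, adjusted p = 0.175), LINE-1 sgRNA 1 (log2 -0.15, adjusted p = 0.135), LINE-1 sgRNA 2 (log2 -0.11, adjusted p = 0.0928) or LINE-1 sgRNA 3 (log2 -0.18, adjusted p = 0.0509). Its exons overlap those of Fdft1, a cholesterol synthesis gene on the other strand that went from 3843 ± 94.1 to 2040.2 ± 42.4. Ctso had 655 and 651 with scramble and 552, 557 and 574 with LINE-1 sgRNA (log2 -0.22, SE 0.084, adjusted p = 0.0447), and did not pass after TMM rescaling (log2 -0.16, adjusted p = 0.144) or without scramble 1 (log2 -0.21, adjusted p = 0.121), scramble 2 (log2 -0.22, adjusted p = 0.105), LINE-1 sgRNA 1 (log2 -0.21, adjusted p = 0.13), LINE-1 sgRNA 2 (log2 -0.21, adjusted p = 0.0725) or LINE-1 sgRNA 3 (log2 -0.24, adjusted p = 0.0704). No cathepsin fell after TMM rescaling or in edgeR.

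Ctsl had the highest mean normalized count of all 63 genes, though Lamp1 and Ctsd were higher per kilobase of exon. Ctsl was at 24485 and 23543 with scramble and 25236, 23129 and 25362 with LINE-1 sgRNA. Ctsd, the main aspartic protease, was at 15199.5 and 13917 with scramble and 14843, 13837 and 14933 with LINE-1 sgRNA. In both the groups overlapped, with 95% intervals of -0.094 to 0.16 and -0.12 to 0.12 for the log2 change. Ctsk, the collagen-degrading enzyme of osteoclasts, went from 308 ± 21.03 to 336 ± 24.8 with overlapping groups. Ctss had 20.3 and 19.1 with scramble and 30.1, 27.0 and 11.4 with LINE-1 sgRNA, and its interval of -0.75 to 0.93 leaves a change of either sign possible. Ctsf, which went from 20.5 ± 1.80 to 16.3 ± 3.03, did not pass, and Ctsh, typical of lung and macrophages, had means of 4.87 and 4.80, too few for a test.

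None of the 3 lysosomal membrane protein genes passed. Lamp1, a heavily glycosylated coat protein of the lysosomal membrane, had 20558 and 20499 normalized counts with scramble and 23182, 21400.3 and 23201 with LINE-1 sgRNA, with groups that did not overlap (log2 0.14, SE 0.057, adjusted p = 0.0625). It passed as higher after TMM rescaling (log2 0.20, adjusted p = 0.00892), in edgeR (log2 0.20, adjusted p = 0.00699) and without LINE-1 sgRNA 2 (log2 0.18, adjusted p = 0.00934). Lamp2, its partner and a receptor for direct import of proteins, had 8979 and 9188 with scramble and 8792, 8583 and 8753 with LINE-1 sgRNA (change -0.061, 95% interval -0.17 to 0.046). Mcoln1, a lysosomal calcium channel that acts on TFEB, had 1441 and 1353 with scramble and 1380.4, 1473 and 1496 with LINE-1 sgRNA, with overlapping groups (change 0.053, 95% interval -0.088 to 0.19).

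Further genes of the same pathways, taken from 5 lists, included larger changes in well-expressed genes than the 59 did. In the list of other lysosomal enzymes 11 of 44 rose and 6 fell, with a median of 0.001. These are shares of 25.0% and 13.6%, against 18.2% and 25.4% of all genes. Among those with a mean of at least 50 the largest rises included those of Smpd1 and Manba. Smpd1, acid sphingomyelinase, had 1316 and 1287 normalized counts with scramble and 3062, 2779 and 2881 with LINE-1 sgRNA (log2 1.16, adjusted p = 9.02e-11). Manba, beta-mannosidase, went from 538 ± 14.8 to 1176 ± 43.6 (log2 1.13, adjusted p = 2.43e-09). Against these, Ids (-0.44), a sulfatase of glycosaminoglycan breakdown, Prcp (-0.35), a carboxypeptidase, and Galc (-0.31), a galactosylceramidase, fell.

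Of 11 further V-ATPase subunit and assembly genes 5 rose (45.5%, against 18.2% of all genes), with a median of 0.17. None fell, where 25.4% of all genes did. After Tcirg1 the largest rises were in Tmem9, which binds the pump (from 2735 ± 164 to 3810.4 ± 142, log2 0.48, adjusted p = 4.10e-06), and Dmxl2, which helps V1 join V0 (from 426 ± 36.3 to 563 ± 30.9, log2 0.40, adjusted p = 0.00284). Of 36 tested genes for other lysosomal membrane proteins and for sorting, 15 rose (41.7%, against 18.2% of all genes). In the same list 6 fell (16.7%, against 25.4%), and the median was 0.067. Without a variance trend 11 rose, where 15.5% of all genes did. Leaving out 1 LINE-1 sgRNA library gave 13 to 16 rises, where 15.7 to 17.4% of all genes rose. Abcb9, a lysosomal peptide transporter, rose from 54.8 ± 4.25 to 157 ± 6.78 (adjusted p = 1.89e-06), Cd68, a LAMP relative used as a macrophage marker, by 0.74 (from 151 ± 14.7 to 253 ± 14.2), and Slc38a9, an arginine sensor of mTORC1, by 0.68 (from 362 ± 31.9 to 582.27 ± 63.0). The cation channel gene Tpcn2 fell, with 1238 and 1195 with scramble and 826, 849.6 and 592 with LINE-1 sgRNA, LINE-1 sgRNA library 3 being the lowest (log2 -0.70, adjusted p = 1.19e-04). Gnptab, which makes the mannose 6-phosphate tag that sends enzymes to the lysosome, fell by 0.46 (from 3007 ± 113 to 2181 ± 93.0), and Tmem106b fell by 0.43 (from 6641 ± 516 to 4916 ± 65.8).

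Among 34 other autophagy genes 9 rose (26.5%, against 18.2% of all genes) and 6 fell (17.6%, against 25.4%), with a median of -0.037. Calcoco1, a cargo receptor (0.58, from 1396 ± 19.5 to 2083 ± 82.4), Vamp8, a SNARE of fusion with the lysosome (0.52, from 1303 ± 132 to 1866 ± 101), and the receptor gene Optn (0.47, from 185 ± 7.496 to 257 ± 10.3) had the largest rises. Fundc1, a receptor for mitochondria (-0.38), Nrbf2, a subunit of the Becn1 complex (-0.38), and Epg5, a tether for fusion (-0.31), fell. Without scramble library 1 the number of rises was 6 of 34, where 16.5% of all genes rose.

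In the list of TFEB and mTORC1 control 4 of 25 tested genes rose and 5 fell, with a median of 0.035. The shares of 16.0% and 20.0% lie near or below the 18.2% and 25.4% of all genes. The number of rises was 1 without scramble library 1, 2 without LINE-1 sgRNA library 1 or 3, and 8 after TMM rescaling. Mitf, described above, had the largest fall, followed by Deptor, an mTOR inhibitor (-0.39, from 325 ± 4.89 to 249 ± 16.5), and Rraga, a Rag GTPase that brings mTORC1 to the lysosome (-0.25, from 5106 ± 26.2 to 4299 ± 236). Deptor did not pass without scramble 1 (log2 -0.37, adjusted p = 0.0588). Tsc1, of the complex that restrains mTORC1, rose by 0.26 (from 1741 ± 1.89 to 2084 ± 76.9). Rragd, another Rag GTPase (from 109 ± 7.73 to 146 ± 8.86, log2 0.42, adjusted p = 0.0403), did not pass without any single library (adjusted p between 0.0515 and 0.16), and Rptor, the mTORC1 scaffold (from 4875 ± 141 to 5599 ± 418, log2 0.20, adjusted p = 0.0151), did not without scramble 1 (log2 0.17, adjusted p = 0.0845).

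Exons of 18 of the 63 genes overlap exons of another gene of the table, 11 of them among the 24 that passed, and reads there cannot be assigned without knowing the strand. Ankzf1, which overlaps Atg9a, rose as well, from 1013 ± 89.8 to 1303 ± 59.2. Mrnip, which overlaps the far more abundant Sqstm1, was at 252 ± 35.4 and 297 ± 15.2 and did not pass. The neighbours of Ctsa (Neurl2 and Pltp), Ctsz (Nelfcd), Map1lc3b (Zcchc14), Atg4d (Kri1) and Atg9b (Nos3) did not pass. Rgs20, next to Atp6v1h, fell. Some genes that did not pass also overlap abundant neighbours. Lamp1 overlaps Grtp1 (13490 ± 385 and 14532 ± 687) and Becn1 overlaps Cntd1 (2795 ± 61.4 and 2707 ± 67.3), and neither neighbour passed. Fchsd2, which overlaps Atg16l2, fell from 1533 ± 46.1 to 1240 ± 48.4. Atp6v0a4 shares exon sequence on the same strand with D630045J12Rik, which is more abundant (1166 ± 66.9 and 1071 ± 18.8) and did not pass, so the source of its reads is uncertain.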

How the data were processed

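The authors deposited normalized counts, a normalized signal per gene and per repeat name for each of 5 libraries (2 scramble, 3 LINE-1 sgRNA; groups and replicate numbers from the sample titles). The labels name total RNA and a NEBNext Ultra II library kit. Per the submitters' processing notes, the tools were DESeq2 (no version), SAMtools 1.9, Bowtie2 2.2.9, STAR 2.5.3a and bedtools 2.27.1, and the build was GRCm38 (mm10). What each tool did, the counting settings and the strandedness are not given there. In every library 100% of the gene values were whole multiples of the smallest value above 0 (tolerance 0.0001 reads), which gave back whole reads. Another scaling moves all changes together, so TMM rescaling is given beside the counts.

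Genes with a mean of at least 10 were fitted together in limma 3.58.1 (R 4.3.3) on log2(value + 1) with a variance trend and no further scaling, and p-values were adjusted over all 14337. Alternatives were pseudocounts of 0.5 and 8, no filter or a mean of 50, TMM rescaling, table totals, no trend, edgeR 4.0.16 and DESeq2 1.42.0 on recovered reads, a replicate block and leaving out each library. The fit was tested on simulated data. Positions and exon lengths come from GENCODE M 21 (GRCm38) and promoter windows from RefSeq (GRCm38.p6).

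The genes and lists were chosen with earlier results of these data known. Values in every library are given for up to 4 genes per role and direction with the largest change past the threshold and for the transcription factors. They are also given for the gene with the highest mean normalized count in most roles. Values are given for up to 3 genes per direction of each further list with a mean of at least 50. Values of other genes, the V0 a subunit set and the overlap of neighbours were added after values were seen. Promoter windows follow the rule of largest change or a CACGTG match. The table of retrovirus loci was not used, and a gene that this rule names is not reported here.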

Additional observations from a re-analysis of the deposited data

How the results depend on the processing

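The counts for the 59 tested genes were 18 higher and 6 lower as deposited. Scaling to the totals of the gene table gave 30 higher and 2 lower, TMM rescaling 27 and 2, edgeR on recovered reads 26 and 2, and DESeq2 on recovered reads 24 and 2. Without a variance trend 3 were lower. Leaving out 1 library gave 15 to 19 higher and 2 to 4 lower. The cause of these differences was not tested. Pseudocounts of 0.5 and 8, a mean of at least 50 and no filter stayed within 1.5 times of both counts. Over all 14337 genes 6243 passed, and 4558 to 6573 did in the alternatives. None of the genes that passed as deposited changed sign in an alternative, and 13 of those that did not pass changed sign in at least 1, never with a call.

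Both groups have libraries numbered 1 and 2, but the labels do not say that a number marks a shared culture or day. Deviations of same-numbered libraries from their group means correlated at -0.008 for number 1 and 0.066 for number 2 across genes. LINE-1 sgRNA library 3 had no scramble library of its number. Pairs with different numbers lay between -0.073 and 0.073. With 2 scramble libraries their deviations mirror each other, so these correlations cannot decide whether numbers mark pairs. With the replicate number as a block 18 genes were higher and 5 lower, and 6573 genes passed in all. Number 3 occurs only with LINE-1 sgRNA, so in this fit LINE-1 sgRNA library 3 adds nothing to the changes. They are those without that library, not a separate check on all 5. Among the 59, Atg16l1 and Atp6v0b no longer passed (log2 -0.14, adjusted p = 0.0791, and log2 0.13, adjusted p = 0.0557) and Atp6v1d did (log2 0.14, adjusted p = 0.0437). Depth limits Atp6v1c2, Atp6v1b1, Atp6v1fnb, Ctss and Ctsf, which had a mean below 50 normalized counts and standard errors of 0.35 or more.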
